A study of Mus musculus with 12 samples.

Results

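The mesenchymal transcription factors described here are the 8 genes Snai1, Snai2, Twist1, Twist2, Zeb1, Zeb2, Prrx1 and Prrx2, taken by gene symbol from the 39423 genes of the count and FPKM tables of mouse 3T3-L1 cells. All 8 were found in both tables, and all 8 passed the filter on low counts in every comparison. 3T3-L1 is an established mouse preadipocyte line that turns into fat cells after treatment with a cocktail of dexamethasone, isobutylmethylxanthine and insulin, called DMI by the study and MDI in the sample labels. RNA was sequenced in 4 conditions of 3 libraries each: cells with a control siRNA (labelled NC, here siCtrl) and cells with an siRNA against the arginine methyltransferase PRMT1 (labelled KD, here siPRMT1), each after 24 hours (day 1) and 72 hours (day 3) of the cocktail. Both groups were transfected before they were induced, no uninduced cells were among these samples, and the sources used here do not say which of the study's PRMT1 siRNAs went into these libraries or whether the 3 libraries of a condition came from separate cultures. P-values therefore measure the spread between these libraries, which may be technical. In such bulk RNA, fewer cells of a type and less RNA per cell cannot be told apart.

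The 8 factors fall into 4 pairs of relatives. SNAI1 (Snail) and SNAI2 (Slug) are zinc finger proteins, and ZEB1 and ZEB2 carry clusters of zinc fingers with a homeodomain between them. Both families bind E-boxes, short DNA motifs with the letters CANNTG, and repress epithelial genes such as the one for E-cadherin, with the help of corepressor complexes. TWIST1 and TWIST2 are basic helix-loop-helix proteins that bind E-boxes as dimers with E proteins, and PRRX1 and PRRX2 are paired-type homeodomain proteins of limb and craniofacial mesenchyme. In embryos these genes act in mesoderm, neural crest and connective tissue, in carcinoma cells several of them drive the epithelial-mesenchymal transition, and fibroblasts and preadipocytes express them as cells of mesenchymal origin.

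RefSeq promoter windows, from 250 bases before to 50 bases after a transcription start on GRCm38.p6, were found for 6 of the 8 genes, in 9 windows of which 4 belong to Zeb2. Snai2 and Zeb1 had no entry. The windows of Snai1 (chr2:167537945-167538244, plus strand), Twist1 (chr12:33957421-33957720, plus strand), Twist2 (chr1:91801211-91801510, plus strand), Prrx1 (chr1:163313601-163313900, minus strand) and Prrx2 (chr2:30845117-30845416, plus strand) are printed so that each pair can be read side by side. Capitals mark the E-box CANNTG (N is any base, and the motif reads alike on both strands), TATAAA and CCAAT, the latter pair on either strand, so that ATTGG is CCAAT on the other strand.
Snai1: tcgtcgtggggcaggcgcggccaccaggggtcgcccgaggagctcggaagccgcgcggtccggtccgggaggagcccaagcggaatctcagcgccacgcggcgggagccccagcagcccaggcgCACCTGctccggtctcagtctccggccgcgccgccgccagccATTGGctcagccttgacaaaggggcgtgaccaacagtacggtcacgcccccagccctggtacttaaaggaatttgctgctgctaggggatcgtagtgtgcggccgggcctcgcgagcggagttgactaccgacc
Twist1: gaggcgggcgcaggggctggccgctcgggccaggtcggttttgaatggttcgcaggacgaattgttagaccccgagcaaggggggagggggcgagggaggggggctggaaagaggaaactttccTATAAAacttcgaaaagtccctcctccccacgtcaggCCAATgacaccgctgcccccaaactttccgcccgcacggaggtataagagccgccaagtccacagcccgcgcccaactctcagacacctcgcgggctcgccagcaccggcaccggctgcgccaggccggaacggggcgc
Twist2: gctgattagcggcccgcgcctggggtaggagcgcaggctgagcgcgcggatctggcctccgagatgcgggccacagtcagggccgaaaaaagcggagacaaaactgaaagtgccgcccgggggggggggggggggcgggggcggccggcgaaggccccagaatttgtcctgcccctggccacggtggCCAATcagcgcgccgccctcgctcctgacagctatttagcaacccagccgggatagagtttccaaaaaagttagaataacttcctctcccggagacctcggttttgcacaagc
Prrx1: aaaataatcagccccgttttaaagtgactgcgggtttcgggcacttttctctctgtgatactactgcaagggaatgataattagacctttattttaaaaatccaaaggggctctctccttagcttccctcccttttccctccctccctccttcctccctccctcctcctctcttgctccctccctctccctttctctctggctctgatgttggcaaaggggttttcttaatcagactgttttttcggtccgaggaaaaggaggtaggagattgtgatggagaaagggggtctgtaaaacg
Prrx2: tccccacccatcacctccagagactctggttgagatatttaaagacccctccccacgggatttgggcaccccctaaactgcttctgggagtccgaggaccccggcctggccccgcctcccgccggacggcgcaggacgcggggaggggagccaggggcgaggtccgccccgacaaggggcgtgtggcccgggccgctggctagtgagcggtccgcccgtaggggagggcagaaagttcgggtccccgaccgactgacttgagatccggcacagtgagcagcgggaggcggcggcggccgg

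An E-box stood in 1 of the 9 windows, that of Snai1, and its letters were CACCTG, the form that Snail and Zeb proteins bind, at 126 bases before the start. Among all 32851 RefSeq windows of this length, 72.3% held CANNTG and 20.2% held CACCTG on either strand, which CANNTG includes. TATAAA stood in 1 window, that of Twist1, against 13.6% of all windows. CCAAT stood in 4 of the 9 windows, those of Snai1, Twist1, Twist2 and 1 of Zeb2, against 37.4% of all windows. The Prrx pair shared none of these letters and differed in base composition, with 47.7% G and C in the Prrx1 window and 70.3% in that of Prrx2. The Prrx2 window lies wholly inside the span listed for the gene, chr2:30845064-30881251. The Zeb2 windows at chr2:45113230-45113529 and chr2:45113204-45113503 overlap for most of their bases, so the 9 windows are not separate sequences. These matches describe letters in the windows and were not tested as binding sites.

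Total counts ran from 15116462 to 42357137 per library, and the 8 factors had between 206 and 26141 counts in a library. Prmt1, the target of the siRNA, stood at 82.86 to 91.28 FPKM in siCtrl and 38.62 to 43.84 FPKM in siPRMT1 at day 1, and at 110.62 to 140.25 and 62.02 to 71.66 FPKM at day 3, so all siPRMT1 libraries lay below the siCtrl libraries of their day, as their labels say (log2 fold change -1.11, SE 0.0758, adjusted p = 9.8e-04 at day 1 and -0.88, SE 0.0883, adjusted p = 1.2e-05 at day 3, edgeR). FPKM, fragments scaled to gene length and library total, is the unit in which levels of different genes are set side by side. Replicate 3 of siCtrl at day 1 stood apart from its own replicates, with a root mean square deviation from its condition's mean of 0.236 on the log2 scale, against 0.0701 to 0.174 in the other 11 libraries. Its median deviation was 0.13 (log2) over the 3432 genes of up to 2674 bases and 0.11 over the 3427 genes of 2676 to 4817 bases. Over the 3430 genes of at least 4818 bases it was -0.01. Of the 8 factors, Snai1, Twist1, Twist2 and Prrx2, with listed lengths of 1335 to 1630 bases, were higher in this library than in the other siCtrl libraries of day 1. Snai2, Zeb1, Zeb2 and Prrx1, with listed lengths of 2014 to 10514 bases, were lower in it. Snai2, at 2014 bases, was thus lower although it belongs to the shortest of these length classes. For the 8 factors, counts of calls and of separate FPKM ranges that use this library are given with and without it, and the part of transcript length in them was not tested.

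The cells carried the markers of their line. The 8 preadipocyte and fibroblast markers summed to 1350 to 1400 FPKM in siCtrl and 1280 to 1310 FPKM in siPRMT1 at day 1, and to 485 to 518 and 596 to 676 FPKM at day 3. The 8 adipocyte markers summed to 147 to 153 and 111 to 126 FPKM at day 1 and to 2690 to 2910 and 2100 to 2290 FPKM at day 3, in the same order of groups. The sums of both lists therefore moved with the day and did not overlap between siCtrl and siPRMT1 on either day, and their part in the changes below was not tested. In each list 1 marker stayed under 1 FPKM. At day 3, 2 of the 8 preadipocyte and fibroblast markers were called higher in siPRMT1 by the thresholds below, beside 2.84% of all genes. Of the 7 adipocyte markers tested, 3 were called lower, beside 3.80% of all genes. Macrophage markers summed to at most 2.86 FPKM with Ptprc at 0 in every library, endothelial markers to at most 0.88 FPKM, and skeletal muscle markers to at most 6.53 FPKM with Myod1 at 0. The 5 epithelial markers summed to 4.13 to 6.01 FPKM in siCtrl and 6.27 to 6.87 FPKM in siPRMT1 at day 1, and to 39.5 to 45.2 and 17.4 to 19.0 FPKM at day 3. Cdh1 and Epcam, the defining ones, were at or near 0 in every condition, and the sum came from keratins. This sum too moved with the day and did not overlap between the groups on either day, and its part was not tested.

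At day 1 in siCtrl, Snai1 and Prrx2 had the highest FPKM of the 8 factors, and the Zeb genes the lowest. Mean levels in siCtrl at day 1 were 98.1 ± 15.9 FPKM (SD, n = 3) for Snai1 and 96.4 ± 15.5 FPKM for Prrx2. Twist2 (56.5 ± 6.25 FPKM) and Prrx1 (54.3 ± 7.03 FPKM) followed. Snai2 stood at 30.6 ± 4.48 FPKM and Twist1 at 28.9 ± 2.79 FPKM, above Zeb2 at 15.7 ± 3.34 FPKM and Zeb1 at 13.1 ± 0.961 FPKM. The libraries of Snai1 and Prrx2 overlapped, as did those of Twist2 and Prrx1, of Snai2 and Twist1 and of Zeb2 and Zeb1. The order by FPKM is therefore set only between these pairs of neighbours and not within them. It also rests on the listed gene lengths, 10514 bases for Prrx1 and 1472 for Prrx2. By counts Prrx1 was the highest factor, at 10325 to 26141 in these libraries against 2957 to 5136 for Prrx2. Of the genes at 1 FPKM or more on average over all 12 libraries, ranked by their mean in that condition, Snai1 stood at the 94.0th percentile and Zeb1 at the 54.0th.

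By day 3 in siCtrl the order by FPKM had changed. Snai1 (53.7 ± 6.91 FPKM, SD, n = 3) and Prrx2 (46.8 ± 4.25 FPKM) still led with overlapping libraries. Twist2 (27.9 ± 1.42 FPKM) and Twist1 (22.4 ± 1.34 FPKM) came next, with all 3 libraries of Twist2 above those of Twist1. Snai2 had gone from the fifth place to the last, at 6.75 ± 0.0681 FPKM, where its libraries overlapped those of Zeb1 at 7.11 ± 0.445 FPKM. Its percentile among genes at 1 FPKM or more on average over all 12 libraries was 76.6 at day 1 and 34.9 at day 3. In siPRMT1 at day 3 Snai2 stood at 12.1 ± 0.624 FPKM, with all of its libraries above those of Zeb1 at 8.15 ± 0.397 FPKM. Prrx2 (53.9 ± 7.05 FPKM) and Snai1 (49.5 ± 5.15 FPKM) led there with overlapping libraries, and Prrx1 (20.0 ± 0.517 FPKM) and Zeb2 (18.9 ± 0.441 FPKM) were separated by 0.02 FPKM between their nearest libraries.

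**Figure D1:**
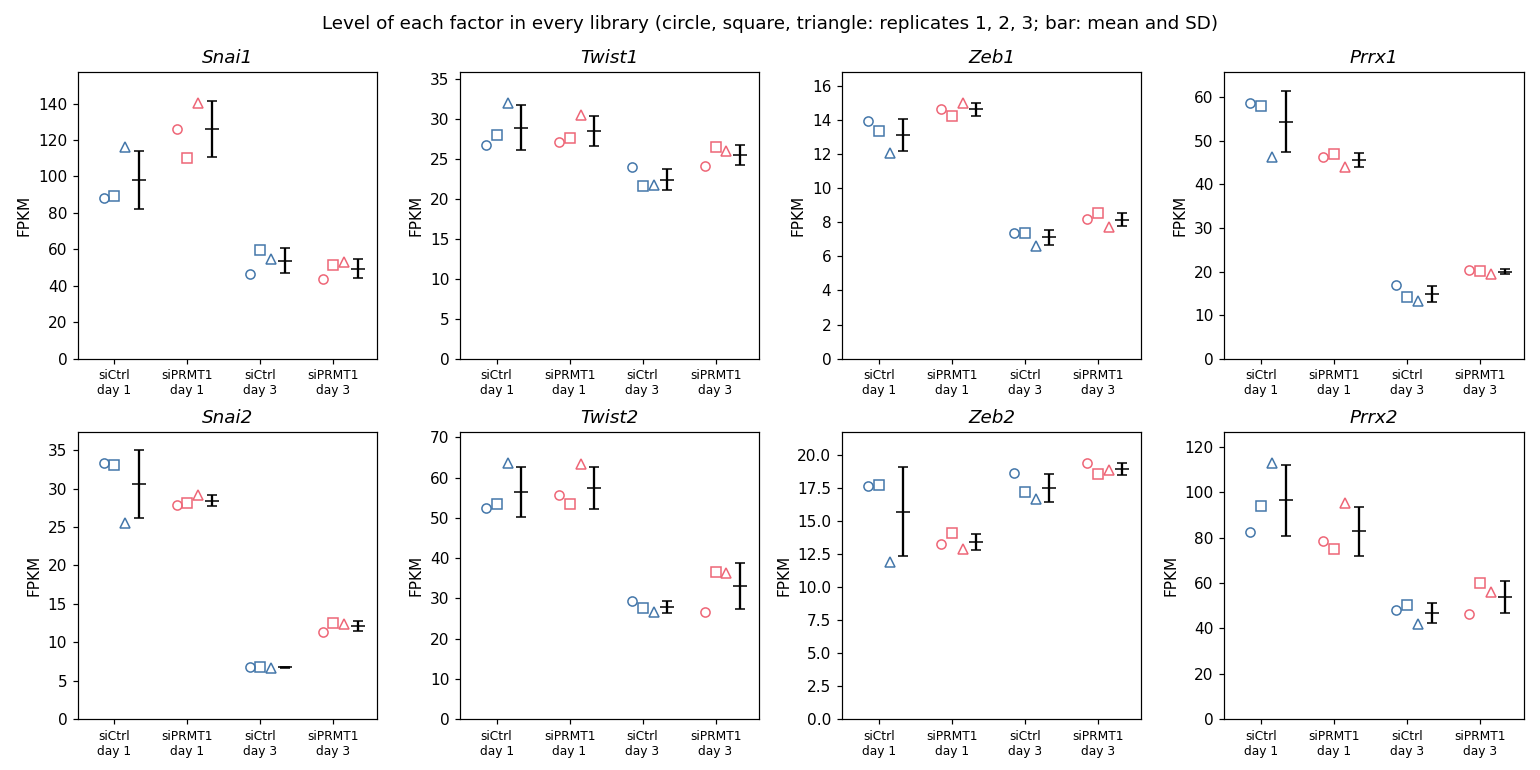
FPKM (y axis, from 0, 1 scale for each gene) of the 8 factors in the 3 libraries of each condition (x axis), with circles, squares and triangles for replicates 1, 2 and 3 and bars for the mean and SD. Snai2 and Prrx1 are far lower at day 3 than at day 1 and higher in siPRMT1 than in siCtrl at day 3, Twist1 moves little with the day, Zeb2 is higher at day 3 in siPRMT1 (12.89 to 14.09 against 18.51 to 19.38), and the triangle of siCtrl at day 1 lies away from its circle and square for most genes.

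The first question is how the factors change as the cells go from day 1 to day 3 of the cocktail. A gene was called when its adjusted p was under 0.05 in edgeR's quasi-likelihood test with Benjamini-Hochberg adjustment over all genes tested and its absolute log2 fold change was over 0.5. In siCtrl cells 6 of the 8 factors were called lower at day 3 (Snai1, Snai2, Twist2, Zeb1, Prrx1 and Prrx2) and 0 were called higher. Over all 13829 genes tested, 20.4% were called lower and 22.7% higher, and the median log2 fold change was -0.004, against -1.02 over the 8 factors. In siPRMT1 cells the same 6 factors were called lower and 0 higher, with a median over the 8 of -0.83, where 17.4% of the 14224 genes tested were called lower and 19.0% higher with a median of 0.002. The FPKM ranges of the days did not overlap for 7 of the 8 factors in siCtrl and for 8 of 8 in siPRMT1, against 64.3% and 66.2% of all genes tested. Without replicate 3 of siCtrl at day 1, the siCtrl comparison again called 6 factors lower. Over all genes it called 5969 in either direction with every library, and 5675 to 6638 when each library was left out in turn. Without that replicate the ranges did not overlap for 7 factors, against 78.2% of all genes. With DESeq2 the count was 6 lower in each comparison, where 5709 genes in siCtrl and 4833 in siPRMT1 were called in either direction.

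Both Snail genes fell. Snai1 (chr2:167538195-167542814, plus strand, 3 exon blocks, mm10) encodes Snail, which represses the E-cadherin gene and is itself a short-lived protein. It stood at 88.23, 89.56 and 116.39 FPKM in siCtrl at day 1 and at 46.25, 59.91 and 54.91 FPKM at day 3. In siPRMT1 it stood at 125.97, 110.17 and 140.51 FPKM at day 1 and at 43.61, 51.47 and 53.31 FPKM at day 3. All day 1 libraries lay above all day 3 libraries in both groups, and the siCtrl and siPRMT1 libraries overlapped on each day. The log2 fold change from day 1 to day 3 was -0.94 (SE 0.137, adjusted p = 2.2e-04, edgeR) in siCtrl, -0.80 without replicate 3 of day 1, and -1.36 (SE 0.0883, adjusted p = 1.3e-08) in siPRMT1.

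Snai2 (chr16:14705859-14709385, plus strand, 3 exon blocks, mm10) encodes Slug, which acts in neural crest and in fibroblasts. It was at 33.35, 33.12 and 25.47 FPKM in siCtrl at day 1 and at 6.80, 6.77 and 6.67 FPKM at day 3. In siPRMT1 it was at 27.87, 28.08 and 29.20 FPKM at day 1 and at 11.39, 12.53 and 12.40 FPKM at day 3. The siCtrl and siPRMT1 libraries overlapped at day 1 and were far apart at day 3, where the siPRMT1 libraries were the higher ones. Its log2 fold change from day 1 to day 3 was -2.25 (SE 0.124, adjusted p = 2.8e-07, edgeR) in siCtrl, which leaves 0.21 of the day 1 level, and -2.38 without replicate 3 of day 1. In siPRMT1 the log2 fold change was -1.24 (SE 0.0671, adjusted p = 1.9e-09), which leaves 0.423 of the day 1 level.

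In the Zeb pair, Zeb1 was called lower and Zeb2 was not. ZEB1 represses epithelial genes through CtBP corepressors. The gene stood at 13.95, 13.31 and 12.06 FPKM in siCtrl at day 1 and at 7.35, 7.39 and 6.60 FPKM at day 3. In siPRMT1 it stood at 14.62, 14.20 and 15.00 FPKM at day 1 and at 8.20, 8.52 and 7.73 FPKM at day 3. The days were separate in both groups, and on both days the siPRMT1 libraries lay just above the siCtrl libraries. Its log2 fold change from day 1 to day 3 was -0.95 (SE 0.0925, adjusted p = 1.4e-05, edgeR) in siCtrl, -1.02 without replicate 3 of day 1, and -0.85 (SE 0.0599, adjusted p = 2.7e-08) in siPRMT1.

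Zeb2 (chr2:44983512-45117442, minus strand, 13 exon blocks, mm10) encodes a SMAD-binding relative of ZEB1. It was at 17.62, 17.71 and 11.88 FPKM in siCtrl at day 1 and at 18.65, 17.17 and 16.62 FPKM at day 3. In siPRMT1 it was at 13.22, 14.09 and 12.89 FPKM at day 1 and at 19.38, 18.51 and 18.82 FPKM at day 3. In siCtrl the days overlapped, with replicate 3 of day 1 alone below all others, while in siPRMT1 all day 3 libraries were above all day 1 libraries. The siCtrl log2 fold change from day 1 to day 3 was 0.08 (SE 0.138, adjusted p = 0.632, edgeR) and turned to -0.09 without replicate 3 of day 1. In siPRMT1 it was 0.48 (SE 0.0596, adjusted p = 8.3e-06), which passed the p threshold and stayed under the fold threshold. With each library left out in turn the siPRMT1 value ran from 0.44 to 0.52. Counts of Zeb2os, a transcript on the opposite strand that overlaps Zeb2, came to at most 1.39% of the Zeb2 counts in any library. The sources used here do not state the strand setting of the counting, so reads of the overlapping pair cannot be told apart.

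In the Twist pair, Twist2 was called lower and Twist1 stayed under the fold threshold. TWIST1, needed for mesoderm and for the closing of the neural tube, is encoded at chr12:33957671-33959831 (plus strand, 2 exon blocks, mm10). Twist1 stood at 26.71, 27.95 and 32.05 FPKM in siCtrl at day 1 and at 23.97, 21.59 and 21.73 FPKM at day 3. In siPRMT1 it stood at 27.18, 27.66 and 30.56 FPKM at day 1 and at 24.09, 26.48 and 26.02 FPKM at day 3. The days did not overlap in either group, but the gap in siPRMT1 was under 1 FPKM. Its log2 fold changes of -0.44 (SE 0.104, adjusted p = 0.00475, edgeR) in siCtrl and -0.17 (SE 0.069, adjusted p = 0.0462) in siPRMT1 passed the p threshold and stayed under the fold threshold. The siCtrl value was -0.36 without replicate 3 of day 1, and ran from -0.52 to -0.36 with each library left out in turn.

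Twist2 (chr1:91801461-91848034, plus strand, 2 exon blocks, mm10), first known as Dermo1 from its place in the dermis, was called lower. It was at 52.35, 53.46 and 63.69 FPKM in siCtrl at day 1 and at 29.38, 27.65 and 26.56 FPKM at day 3. In siPRMT1 it was at 55.71, 53.45 and 63.46 FPKM at day 1 and at 26.49, 36.50 and 36.36 FPKM at day 3. The days were separate in both groups, and at day 3 replicate 1 of siPRMT1 lay with the siCtrl libraries while its other replicates lay above them. The log2 fold change from day 1 to day 3 was -1.09 (SE 0.105, adjusted p = 1.3e-05, edgeR) in siCtrl, called again without replicate 3 of day 1 (adjusted p = 2.1e-08), and -0.81 (SE 0.103, adjusted p = 1.1e-05) in siPRMT1. An uncharacterised transcript on the opposite strand, LOC108167658, overlaps Twist2 and had at most 3.76% of its counts in a library.

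Both Prrx genes fell. PRRX1 marks limb bud and craniofacial mesenchyme and is also known from white fat progenitors, and its gene lies at chr1:163245119-163313705 (minus strand, 6 exon blocks, mm10). It stood at 58.70, 57.97 and 46.18 FPKM in siCtrl at day 1 and at 16.93, 14.24 and 13.33 FPKM at day 3. In siPRMT1 it stood at 46.16, 46.82 and 43.87 FPKM at day 1 and at 20.35, 20.23 and 19.40 FPKM at day 3. At day 1 the siPRMT1 libraries lay at the level of the lowest siCtrl library, and at day 3 all of them lay above all siCtrl libraries. Its log2 fold change from day 1 to day 3 was -1.94 (SE 0.116, adjusted p = 4.9e-07, edgeR) in siCtrl, which leaves 0.26 of the day 1 level, and -2.05 without replicate 3 of day 1. In siPRMT1 it was -1.20 (SE 0.0569, adjusted p = 4.9e-10), which leaves 0.434 of the day 1 level.

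Prrx2 (chr2:30845064-30881251, plus strand, 4 exon blocks, mm10) acts with Prrx1 in skeletal mesenchyme. It was at 82.37, 93.77 and 113.00 FPKM in siCtrl at day 1 and at 47.95, 50.29 and 42.04 FPKM at day 3. In siPRMT1 it was at 78.47, 74.94 and 95.23 FPKM at day 1 and at 46.14, 59.85 and 55.84 FPKM at day 3. The days were separate in both groups, and the siCtrl and siPRMT1 libraries overlapped on both days. The log2 fold change from day 1 to day 3 was -1.11 (SE 0.127, adjusted p = 4.2e-05, edgeR) in siCtrl, -0.99 without replicate 3 of day 1, and -0.63 (SE 0.0956, adjusted p = 5.8e-05) in siPRMT1.

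**Figure D2:**
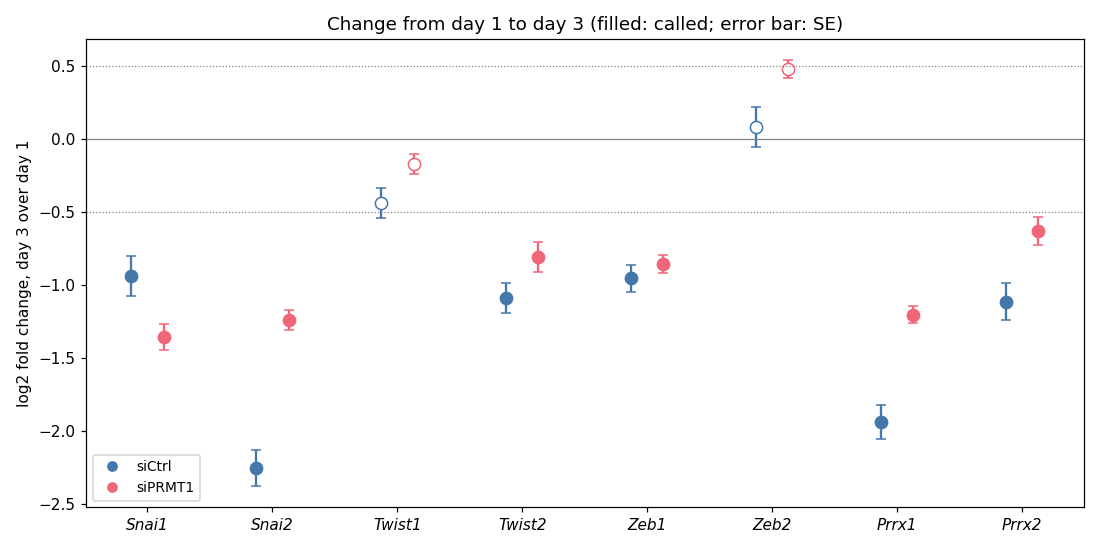
Log2 fold change from day 1 to day 3 (y axis) of the 8 factors (x axis) in siCtrl and siPRMT1 cells, with the SE as error bars, filled points for called genes and dotted lines at the fold threshold of 0.5 in each direction. The 6 called factors run from -2.25 (Snai2) to -0.94 (Snai1) in siCtrl and from -1.36 (Snai1) to -0.63 (Prrx2) in siPRMT1, and Twist1 and Zeb2 lie within the dotted lines.

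The second question is what PRMT1 knockdown did to the factors on each day. At day 1, 0 of the 8 factors were called in either direction by edgeR, and DESeq2 also called 0. Over all 13689 genes tested, 1.95% were called higher and 1.61% lower in siPRMT1. At an unadjusted p under 0.05, Snai1 and Prrx1 passed in edgeR, as did 24.6% of all genes tested. The log2 fold changes of the 8 factors ran from -0.30 to 0.31 with a median of -0.12, beside a median of 0.01 over all genes. The FPKM ranges did not overlap for 1 of the 8 factors, Zeb1, against 31.7% of all genes tested. With replicate 3 of siCtrl left out they did not overlap for 5 (Snai1, Snai2, Zeb1, Zeb2 and Prrx1), against 55.1% of all genes.

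At day 3, 1 of the 8 factors, Snai2, was called higher in siPRMT1 and 0 were called lower, where 2.84% of the 14039 genes tested were called higher and 3.80% lower. Prrx1 passed the p threshold and missed the fold threshold. Snai2, Twist1, Twist2, Zeb1, Prrx1 and Prrx2 had an unadjusted p under 0.05 in edgeR, as did 31.3% of all genes tested. The fitted values were positive for 7 of the 8 factors, with a median of 0.20 beside 0.007 over all genes. FPKM ranges did not overlap for 4 of the 8 factors (Snai2, Twist1, Zeb1 and Prrx1), against 34.2% of all genes. With 3 libraries a side, the two-sided exact permutation test of mean FPKM cannot go below 0.1, the value it gave for each of these 4.

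Snai2 was 1.79-fold higher in siPRMT1 at day 3 (log2 fold change 0.84, SE 0.0878, adjusted p = 1.6e-05, edgeR). At day 1 its log2 fold change was -0.16 (SE 0.112, adjusted p = 0.414), and -0.29 (adjusted p = 0.00264) without replicate 3 of siCtrl. The pair of day effects differed: the interaction of siRNA and day, which is the knockdown log2 fold change at day 3 minus that at day 1, was 1.02 (SE 0.134, adjusted p = 2.4e-04) over all 12 libraries, and it was again called without that library (adjusted p = 1.4e-06). Snai2 thus fell from day 1 to day 3 in both groups, and by less in siPRMT1.

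Prrx1 was 1.34-fold higher in siPRMT1 at day 3 (log2 fold change 0.43, SE 0.0811, adjusted p = 0.00222, edgeR). With each library left out in turn the value ran from 0.35 to 0.52. Prrx1 was called only when replicate 1 of siCtrl at day 3 was left out (0.52). At day 1 its log2 fold change was -0.30 (SE 0.0981, adjusted p = 0.103), and -0.41 (adjusted p = 1.1e-04) without replicate 3 of siCtrl. Its interaction of siRNA and day was 0.75 (SE 0.13, adjusted p = 0.00218), and 0.82 without that library. Like Snai2, Prrx1 fell by less over the days in siPRMT1 than in siCtrl.

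The other 6 factors were not called on either day. Snai1 had log2 fold changes of 0.31 (SE 0.122, adjusted p = 0.165, edgeR) at day 1 and -0.12 (SE 0.099, adjusted p = 0.422) at day 3, and Prrx2 of -0.27 and 0.20 (adjusted p = 0.236 and 0.157). For Zeb2 the values were -0.28 and 0.11 (adjusted p = 0.282 and 0.303). Zeb1 was at 0.10 and 0.19 (adjusted p = 0.452 and 0.102). The Twist genes were also not called, with Twist1 at -0.07 and 0.18 (adjusted p = 0.686 and 0.129) and Twist2 at -0.02 and 0.25 (adjusted p = 0.917 and 0.128). Without replicate 3 of siCtrl, the day 1 values of Snai1 (0.44, adjusted p = 0.00151) and Zeb2 (-0.46, adjusted p = 1.4e-04) passed the p threshold under the fold threshold, and those of Twist1 and Twist2 turned to 0.00 and 0.06. A p above the threshold in groups of 3 does not show that a level was the same.

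Over all 12 libraries, 2 of the 8 factors (Snai2 and Prrx1) were called higher for the interaction and 0 lower, where 4.77% of the 14612 genes tested were called higher and 3.47% lower. The median interaction was 0.35 over the 8 factors and 0.018 over all genes. Prrx2 was at 0.49 (SE 0.179, adjusted p = 0.089, edgeR), Zeb2 at 0.41 (SE 0.159, adjusted p = 0.11) and Snai1 at -0.41 (SE 0.181, adjusted p = 0.158). Without replicate 3 of siCtrl at day 1, 4 factors were called, with Zeb2 (0.54, adjusted p = 3.7e-04) added to the higher ones and Snai1 (-0.58, adjusted p = 0.00911) as the lower one, and the count over all genes rose from 1204 to 1907. DESeq2 called Snai2 and Prrx1, and 1200 genes over all. The comparisons between days, between siRNAs and the interaction share libraries, so their values for a gene are not independent of each other.

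**Figure D3:**
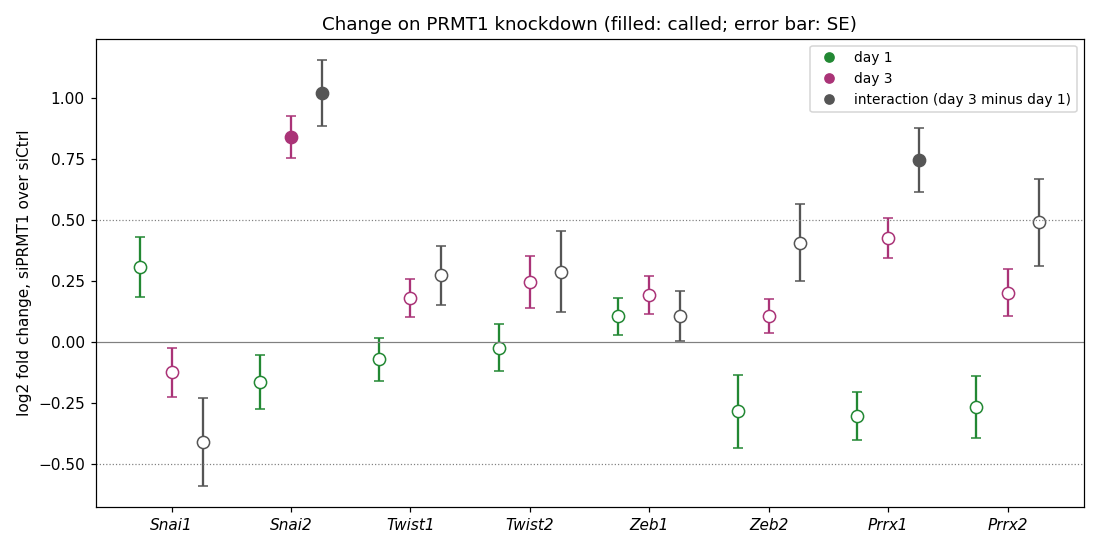
Log2 fold change of siPRMT1 over siCtrl (y axis) for the 8 factors (x axis) at day 1, at day 3 and as the difference of the days, with the SE as error bars, filled points for called genes and dotted lines at the fold threshold of 0.5 in each direction. Snai2 is called at day 3 (0.84) and in the interaction (1.02), Prrx1 in the interaction (0.75), and no factor is called at day 1.

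The ratio of relatives within a library does not depend on the scaling between libraries, but its size depends on the listed gene lengths. At day 1 the FPKM ratio of Snai1 over Snai2 was 2.65, 2.70 and 4.57 with siCtrl and 4.52, 3.92 and 4.81 with siPRMT1. The day 3 ratios were 6.80, 8.85 and 8.23 with siCtrl and 3.83, 4.11 and 4.30 with siPRMT1. The day 3 siCtrl libraries therefore stood above all others, while the siPRMT1 ranges of both days overlapped. At day 1 the groups overlapped only through replicate 3 of siCtrl (4.57). Prrx2 over Prrx1 went from 1.82 ± 0.554 (SD, n = 3) to 3.17 ± 0.35 in siCtrl and from 1.82 ± 0.304 to 2.70 ± 0.377 in siPRMT1, with the groups overlapping on each day.

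Twist2 over Twist1 moved with the day. It was 1.95 ± 0.0404 (SD, n = 3) in siCtrl and 2.02 ± 0.0794 in siPRMT1 at day 1, and 1.24 ± 0.0321 and 1.29 ± 0.168 at day 3. Zeb2 over Zeb1 moved the other way, from 1.19 ± 0.182 to 2.46 ± 0.122 in siCtrl and from 0.918 ± 0.0676 to 2.32 ± 0.135 in siPRMT1. For both of these pairs all libraries of day 1 were on 1 side of all libraries of day 3. The groups of a day overlapped, for Zeb2 over Zeb1 at day 1 only through replicate 3 of siCtrl, at 0.985, beside 1.26 and 1.33 in the other siCtrl libraries and 0.859 to 0.992 in siPRMT1.

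**Figure D4:**
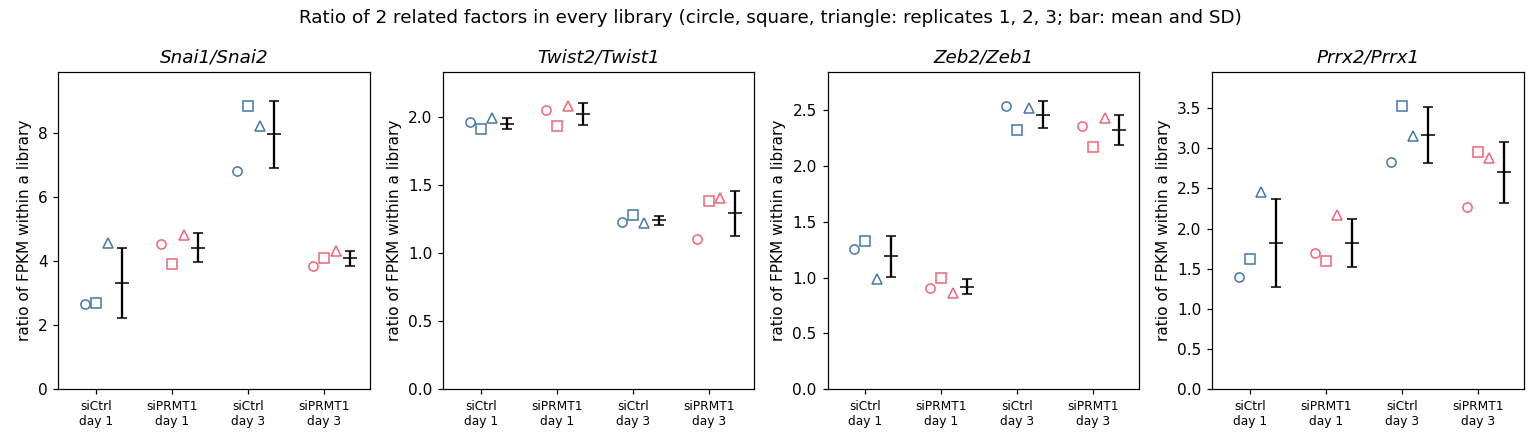
Ratio of FPKM between the relatives of each pair (y axis, from 0) in the 3 libraries of each condition (x axis), with circles, squares and triangles for replicates 1, 2 and 3 and bars for the mean and SD. Snai1 over Snai2 is highest in siCtrl at day 3 (7.96 ± 1.05), and Twist2 over Twist1 and Zeb2 over Zeb1 separate the days in both groups.

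Genes around the 8 factors were read from fixed lists, each by its counts beside the shares of all genes called in that comparison given above. Those shares belong to the fits with every library. With each library left out in turn, the calls over all genes ran from 5675 to 6638 over the days in siCtrl. For knockdown at day 1 they ran from 123 to 873, and for the interaction from 813 to 1907. The 25 mesenchymal genes of matrix, cytoskeleton, adhesion and surface, of which 23 were tested, moved with the factors over the days. In siCtrl 19 were called lower and 2 higher at day 3, with a median log2 fold change of -1.07, and in siPRMT1 13 were called lower and 2 higher, with a median of -0.64. Among those lower in siCtrl were Lox, a collagen-crosslinking oxidase (-2.60, SE 0.0849, adjusted p = 1.1e-08, edgeR), and Fn1, fibronectin (-2.33, SE 0.0613, adjusted p = 3.6e-09). Acta2, smooth muscle actin, was 1 of the 2 that went against the list and were called higher at day 3 in both groups. Its values were 1.95 (SE 0.111, adjusted p = 3.5e-07) in siCtrl and 2.67 (SE 0.0676, adjusted p = 1.2e-12) in siPRMT1. The siCtrl counts were 19 lower and 3 higher without replicate 3 of day 1.

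At day 1, 0 of the 23 mesenchymal genes were called between siPRMT1 and siCtrl by edgeR and by DESeq2, with a median of -0.11, and 12 had an unadjusted p under 0.05 in edgeR, which 24.6% of all genes had. The count of calls was also 0 without replicate 3 of siCtrl. The 4 with the smallest p were Vim (-0.35), Lox (-0.34), Mmp2 (-0.32) and Pdgfra (-0.23). Their adjusted p of 0.00647 to 0.0432 in edgeR passed the p threshold, and they stayed under the fold threshold. Every gene of the list that passed the p threshold at day 1 was lower in siPRMT1. At day 3, 4 were called higher and 0 lower, with a median of 0.33. They were Lox (0.88, SE 0.0739, adjusted p = 2.3e-06), Mmp2, a gelatinase (0.61, SE 0.0701, adjusted p = 3.3e-05), Pdgfra, the PDGF receptor of preadipocytes (0.60, SE 0.0646, adjusted p = 2.0e-05), and Cdh11, a mesenchymal cadherin (0.50, SE 0.0707, adjusted p = 2.0e-04). Lox stood at 146.54 to 161.88 FPKM in siCtrl and 119.78 to 131.53 FPKM in siPRMT1 at day 1, and at 25.38 to 29.78 and 48.20 to 52.80 FPKM at day 3. The siPRMT1 libraries of Lox thus lay below those of siCtrl at day 1 and above them at day 3. For the interaction, 11 of the 23 were called higher and 0 lower, and again 11 and 0 without that library. The 4 with the smallest p for the interaction were Lox (1.24), Pdgfra (0.86), Mmp2 (0.95) and Cdh11 (0.77).

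**Figure D5:**
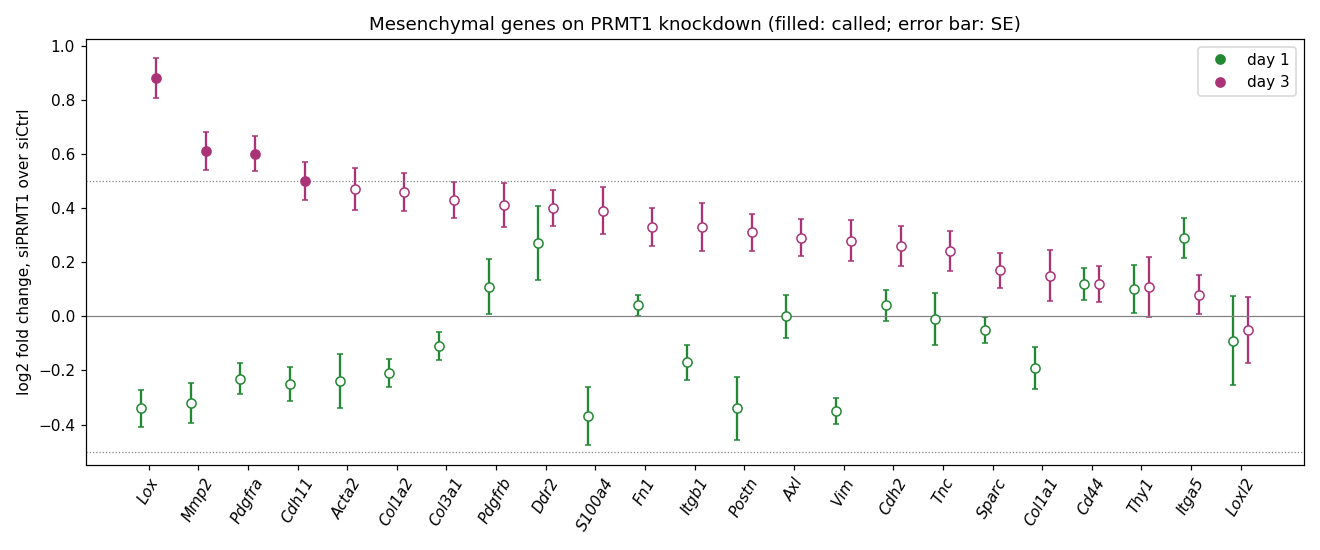
Log2 fold change of siPRMT1 over siCtrl (y axis) at day 1 and day 3 for all 23 tested genes of the mesenchymal list (x axis, sorted by the day 3 value), with the SE as error bars, filled points for called genes and dotted lines at the fold threshold. At day 3 the values run down from 0.88 (Lox) with 4 genes called, and no gene is called at day 1.

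The epithelial genes that Snail, Zeb and Twist proteins repress in other cells were mostly at the floor. Of the 24 in the list 23 were in the table and 4 passed the filter in the day comparisons, the keratins Krt8, Krt18 and Krt19 and the polarity gene Llgl2, and Krt19 and Llgl2 were called higher at day 3 in both groups. Cdh1, the gene of E-cadherin, and Epcam had a mean of at most 0.01 FPKM in every condition. Krt19 stood at 4.13 to 5.98 FPKM in siCtrl and 6.24 to 6.75 FPKM in siPRMT1 at day 1, and at 28.03 to 33.89 and 10.77 to 12.37 FPKM at day 3. Krt8 and Krt18 had at most 6 and 1 counts in a day 1 library and passed the filter only through day 3, so their difference over the days is given as levels and supports nothing. Krt8 stood at 9.02 to 9.54 FPKM in siCtrl and 5.37 to 5.96 FPKM in siPRMT1 at day 3, and Krt18 at 1.74 to 2.36 and 0.66 to 0.96 FPKM. All 3 keratins were called lower in siPRMT1 at day 3, with log2 fold changes of -1.39 for Krt19 (SE 0.0961, adjusted p = 5.0e-07, edgeR), -1.29 for Krt18 (SE 0.203, adjusted p = 4.8e-04) and -0.70 for Krt8 (SE 0.096, adjusted p = 1.6e-04). At day 1, 0 of the 2 that passed the filter were called by edgeR or DESeq2, 1 of them had an unadjusted p under 0.05 (24.6% of all genes), and Krt19 was called higher without replicate 3 of siCtrl. The interaction of Krt19 was -1.73 (SE 0.18, adjusted p = 3.8e-05), and it was again called lower without that library.

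Of 30 other transcription factors of mesenchyme and epithelial-mesenchymal transition, 22 were tested. In siCtrl 12 were called lower and 3 higher at day 3 (13 and 3 without replicate 3 of day 1), and in siPRMT1 11 lower and 3 higher. Osr1, a zinc finger factor of intermediate mesoderm and limb connective tissue, had log2 fold changes over the days of -2.34 (SE 0.0918, adjusted p = 3.4e-08, edgeR) in siCtrl and -1.97 (SE 0.0822, adjusted p = 1.5e-10) in siPRMT1. At day 1, 2 of the 22 were called higher in siPRMT1, Fosl1, an AP-1 subunit (0.82, SE 0.169, adjusted p = 0.0262), and Sox4 (0.55, SE 0.0711, adjusted p = 0.00533), and both were again called without replicate 3 of siCtrl. At day 3 Osr1 (0.60, SE 0.0951, adjusted p = 5.1e-04) and its relative Osr2 (0.77, SE 0.166, adjusted p = 0.00523) were called higher and Fosl1 lower (-1.34, SE 0.135, adjusted p = 1.3e-05). The interaction of Fosl1, opposite in sign to those of Snai2 and Prrx1, was -2.14 (SE 0.251, adjusted p = 9.2e-05). In all 3 genes of the list had an interaction called higher, among them Ets1 (0.54) and Foxd1 (0.80), and 1, Fosl1, lower. Leaving out replicate 3 of siCtrl at day 1 gave 2 higher, Ets1 and Foxd1, and 3 lower, Fosl1 among them.

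Partners, corepressors and regulators of the 8 factors were read in the same way. Of the 7 E proteins and Id proteins, the dimer partners of Twist and their inhibitors, 3 were called lower over the days and 1 higher in each group. Id2, an inhibitor of E proteins, had log2 fold changes of -1.69 (SE 0.091, adjusted p = 2.4e-07, edgeR) in siCtrl and -1.66 (SE 0.0853, adjusted p = 1.1e-09) in siPRMT1. Those of Tcf4, an E protein, were -0.88 and -0.89, those of Id4 were -1.90 and -1.11, and those of Id1 were 0.76 and 0.53. Between siPRMT1 and siCtrl 0 of the 7 were called by edgeR or DESeq2 on either day, while 2 at day 1 and 3 at day 3 had an unadjusted p under 0.05 in edgeR, beside 24.6% and 31.3% of all genes. Id4 had a called interaction of 0.79 (SE 0.166, adjusted p = 0.00673), again called higher without replicate 3 of siCtrl at day 1.

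Of 16 corepressor genes, 15 were tested over the days, and Ezh2, the H3K27 methyltransferase, was lower in siCtrl (-0.78, SE 0.0952, adjusted p = 6.7e-05, edgeR) and siPRMT1 (-0.70, SE 0.0685, adjusted p = 8.5e-07). The LIM proteins Ajuba (0.60 and 0.54) and Wtip (0.60 and 0.54) were higher. Of 17 regulators of the stability of the proteins, Ctdsp2, a phosphatase (-0.61, adjusted p = 1.2e-04), and Pak1, a kinase (-0.82, adjusted p = 2.4e-04), were lower in siCtrl, and 0 were called in siPRMT1 by edgeR or DESeq2, with 10 at an unadjusted p under 0.05 against 66.6% of all genes. For both lists 0 genes were called by knockdown on either day and 0 for the interaction, by edgeR and by DESeq2. At an unadjusted p under 0.05 in edgeR, 4 corepressor genes passed at day 1, at day 3 and for the interaction alike, and of the stability regulators 0, 5 and 4, where 24.6%, 31.3% and 27.3% of all genes did. Without replicate 3 of siCtrl at day 1 the siCtrl day comparison called 3 lower and 2 higher corepressor genes and 3 lower and 1 higher stability regulators, and the interaction called 1 corepressor gene, Hdac2. Of 14 sequence relatives of the 8 factors 2 or 3 passed the filter. Shox2, a relative of the Prrx genes, was lower over the days in siCtrl (-1.17, SE 0.113, adjusted p = 1.3e-05, edgeR) and siPRMT1 (-0.98, SE 0.0864, adjusted p = 2.7e-07). Scx, a helix-loop-helix factor of tendon, was higher (1.82 and 1.72) but near the floor at day 1. It stood there at 0.14 to 0.32 FPKM in siCtrl and 0.19 to 0.32 FPKM in siPRMT1, with at most 13 and 15 counts in a library. Alx4 had at most 6 counts in a day 1 library and passed the filter only through day 3, so its difference over the days supports nothing. Its levels in siCtrl were 0.01 to 0.04 FPKM at day 1 and 0.12 to 0.16 FPKM at day 3.

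Genes with a similar course over the 12 libraries were listed for each factor by the root mean square difference of mean-centred log2 CPM among 10289 genes, as a description with no test. For Snai1, whose own SD over the libraries was 0.64, they were Map3k14 (0.111), Jun (0.114) and Dlx2 (0.123). For Snai2, with an SD of 0.977, they were Pdp1 (0.0712), Myof (0.124) and Ctla2a (0.126), and for Prrx1, with an SD of 0.863, Vcan (0.0817) and Enah (0.106). Prrx1 stood at place 29 among all genes by likeness to Snai2, at a difference of 0.193, and Prrx2 at place 30 by likeness to Twist2, at 0.12. These libraries share their conditions, so a small difference mostly says that 2 genes share the step between the days. Twist2 was followed by Tvp23a (0.0782) and Lynx1 (0.0826), Zeb1 by Mdm1, Dtl and Ttc21b (0.0546 to 0.0642) and Prrx2 by Steap3 (0.0968) and Adamtsl4 (0.103). For Twist1 and Zeb2, whose own SDs were 0.208 and 0.232, the nearest genes were Ano6, Ski and Slc29a1 (0.0545 to 0.0605) and Cdc73, Klhl24 and Rpe_1 (0.09 to 0.0938).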

How the data were processed

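The deposited tables hold, per gene, raw read counts and FPKM of 12 libraries, and all 12 were used. According to the methods and the submitters' processing notes, the authors used cutadapt 1.11 to trim reads and HISAT2 2.1.0 to map them, build mm10, and RSEM 1.2.6 is listed without a role. The counting tool, its strand setting and its treatment of reads with several places are not given in the sources used here. The deposited FPKM, made by the authors, equal counts per listed length and library total to within 0.005.

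The 8 factors and the gene lists were chosen with earlier results of these data known. Counts were tested with edgeR 4.0.16 (TMM, filterByExpr, quasi-likelihood, R 4.3.3), on 3 against 3 libraries or, for the interaction, on all 12, with Benjamini-Hochberg adjustment over all genes tested. The thresholds on adjusted p (0.05) and on log2 fold change (0.5, either sign) follow the study's methods. An SE was obtained as log2 fold change over root F. Log2(FPKM + 1) was tested with limma 3.58.1 where a gene averaged 1 FPKM or more, as a second scale. The tests were checked on simulated counts. Alternatives were RLE normalization, no filter, at least 10 counts in every library, DESeq2 1.42.0, all libraries in 1 model, no fold threshold, a pseudocount of 0.1, a replicate block and leaving out each library. Leaving replicate 3 of siCtrl at day 1 out of the list counts and of the FPKM ranges, and the comparison by transcript length, were added after seeing the data. Text names all 8 factors, Prmt1, of each list the called genes with at most the 4 smallest p per comparison, defining cell type markers, Hdac2, chosen after its values were seen, and the 3 genes nearest to each factor in log2 CPM (prior count 2, mean of at least 5 CPM), some of which are not reported here. Same-numbered libraries are not paired in the labels.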

Additional observations from a re-analysis of the deposited data

Results flagged for a closer look

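For 2 of the 8 factors the effect of the siRNA differed between the days in the test of the interaction over all 12 libraries (edgeR's quasi-likelihood test, Benjamini-Hochberg over all 14612 genes). For Snai2 the knockdown log2 fold change at day 3 minus that at day 1 was 1.02 (adjusted p = 2.4e-04). For Prrx1 it was 0.75 (adjusted p = 0.00218). Leaving out each of the 12 libraries in turn, the Prrx1 value ran from 0.66 to 0.84. Over the days both genes fell in siCtrl and in siPRMT1.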

How the results depend on the processing

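Leaving out each library in turn gave 0 factors called at day 1 throughout, 1 to 2 at day 3 (2 without replicate 1 of siCtrl, with Prrx1 added), and 2 to 4 for the interaction (4 without replicate 3 of siCtrl at day 1). Over the days it gave 6 to 7 in each group, with Twist1 added as lower in siCtrl and Zeb2 as higher in siPRMT1. Over all genes the calls then ran from 123 to 873 at day 1 (487 with all libraries), from 781 to 964 at day 3 (933) and from 813 to 1907 for the interaction (1204). Over the days they ran from 5675 to 6638 in siCtrl (5969) and from 5167 to 5275 in siPRMT1 (5186). Dropping the fold threshold gave 1040 genes at day 1, 2313 at day 3 (933 with it) and 9014 over the days in siPRMT1 (5186), with 2 factors at day 3. Signs turned only where values were near 0 and 1 library was left out: by counts Twist1 at day 1 ran from -0.13 to 0.00, Twist2 at day 1 from -0.10 to 0.06 and Zeb2 over the days in siCtrl from -0.09 to 0.16. On log2(FPKM + 1) Twist1 at day 1 ran from -0.07 to 0.06, Twist2 from -0.04 to 0.12 and Zeb2 over the days in siCtrl from -0.02 to 0.25. With no filter on low counts the interaction called 3 factors, Prrx2 added, and 1488 genes over all. The cause of these shifts was not tested. RLE normalization, DESeq2, the stricter filter and 1 model for all libraries kept the same factors called.

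Same-numbered libraries did not deviate together in every pair (correlations of -0.36 to 0.45), nor was every library most alike to its own number, so the numbers were not taken as pairs. With a replicate block the factors called were 0 and 1 for knockdown at day 1 and day 3, 6 over the days in each group and 2 for the interaction, and over all genes 536, 974, 5929, 5193 and 1277. With 3 libraries a condition the SEs of the factors ran from 0.0569 to 0.181 (log2), and no factor had under 206 counts in a library.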
